A study of Mus musculus with 12 samples.

Results

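The ribosomal RNA precursor and 4 noncoding RNA genes, Rn45s, Mir6236, Mir6381, Malat1 and Neat1, were followed across RNA-seq of the mouse small cholangiocyte line SMCC. These 5 genes of 24421 in the count table were chosen by name after earlier results of these data were known. The values that chose them were lower shares of Rn45s and Mir6236 after silencing of β-catenin and higher shares of several of them after plasmid transfection, so both of these patterns are given as descriptions without a test. The comparison of the 2 plasmids was not used for the choice and was tested.

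SMCCs are immortalized biliary epithelial cells, and all 12 libraries came from this 1 line, with 3 libraries in each group. One pair of groups received siRNA with RNAiMAX for 24 hr, either a control siRNA (si-CTL) or an siRNA against β-catenin (si-Ctnnb1). The other pair received a plasmid with Lipofectamine 3000 for 48 hr, either eGFP or the stable S45Y mutant of β-catenin (S45Y). The plasmids and siRNAs thus differ in agent, reagent and time together, and these cannot be told apart. The labels name total RNA and standard Illumina libraries, and a step that removes ribosomal RNA or selects polyadenylated RNA is not given in the sources used here. Nothing in the labels says that replicates were separate cultures, so the spread between libraries may be technical.

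The authors counted reads per gene symbol, and the counts were used as deposited. Total counts ranged from 221767 to 326686 in the siRNA libraries and from 91468 to 122304 in the plasmid libraries. Ctnnb1, the β-catenin gene, had between 13 and 38 counts in si-CTL and between 0 and 11 in si-Ctnnb1. It had 6, 11 and 10 counts in the eGFP libraries and 11, 4 and 18 in the S45Y libraries. These overlapped, and the few counts do not show more Ctnnb1 RNA with S45Y (log2 fold change of Ctnnb1 0.51, unadjusted p = 0.355 from edgeR). Whether RNA of the plasmid is counted on Ctnnb1 is not given in the sources used here. The paper reports that S45Y raised the activity of TOPFlash, a β-catenin reporter, in SMCCs, which these counts do not measure. Of 13 cholangiocyte markers 10 had a count, led by Krt18 with 1150 counts over all libraries, while Epcam, Cftr and Aqp1 were at 0. The hepatocyte markers held 1 count in all, the fibroblast and stellate markers 14, the immune markers 183, of which 174 were on Cd68, and the endothelial markers 57, of which 50 were on Stab2. A share is given below as the percent of all gene counts of a library, and intervals are 95% Wilson intervals that cover counting error only.

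RNA polymerase I transcribes the ribosomal DNA repeats in the nucleolus into one long precursor, which is modified and cut into the mature ribosomal RNAs. Malat1 and Neat1 are long noncoding RNAs that stay in the nucleus. Malat1 is abundant and sits in nuclear speckles, where splicing factors gather, and Neat1 is the scaffold of paraspeckles. Mir6236 and Mir6381 are annotated microRNA genes, and the counts are on the gene symbols, so they do not measure the mature microRNAs.

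The sequences of Mir6381 are shown because its place in the genome bears on what its counts may hold. It matched RefSeq on GRCm38.p6 by symbol. In the mature form, written 5′ to 3′, capitals mark the seed, bases 2 to 8.
mmu-miR-6381: cAGGAUGCuggugacaugagu
Among 1738 mature mouse microRNAs in the RefSeq table, no other had this seed. Mir6381 lies on the minus strand of mm10 at chr3:142623860-142623946, inside Gbp2, an interferon-inducible guanylate-binding protein gene on the plus strand. In its transcript capitals mark the 24 bases that lie opposite exon 2 of Gbp2, and the other 63 bases lie opposite the following intron.
Mir6381: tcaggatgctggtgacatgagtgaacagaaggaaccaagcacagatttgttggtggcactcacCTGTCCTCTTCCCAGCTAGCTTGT
The strand setting of the counting is not given in the sources used here, so reads of Gbp2 and Mir6381 cannot be told apart. Malat1 (chr19:5795690-5802672) and Neat1 (chr19:5824708-5845478) are neighbours on the minus strand, 22035 bases apart. The position of Rn45s was not analysed here. Ribosomal DNA is repeated many times in the genome, and how reads with several matches were treated is not given in the sources used here, so the counts of Rn45s and Mir6236 are uncertain. Mir6236 is known to resemble ribosomal RNA, and how many of its counts are ribosomal RNA reads was not tested. The Rn45s unit also holds the mature ribosomal RNA sequences, so reads of the precursor and of mature ribosomal RNA left in a library cannot be told apart.

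Rn45s was the most abundant gene of all 12 libraries, and after silencing its share was about 2-fold lower. It held 5.49%, 3.64% and 3.79% of the si-CTL libraries, which is 12185, 11891 and 11236 counts. In si-Ctnnb1 it held 2.44%, 1.61% and 2.39%, which is 7213, 5030 and 7467 counts. The groups did not overlap. The log2 ratio of the mean shares was -1.01, and it was -1.04 when Rn45s and Mir6236 were left out of the library totals. Within each siRNA group the share spanned 1.51-fold. In a bulk sample, less of this RNA per cell and fewer cells that hold it cannot be told apart. Nor can either be told apart from differing amounts of ribosomal RNA left in the libraries.

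Mir6236 showed the same order. It had 244, 237 and 237 counts in si-CTL, or 0.11003%, 0.0725% and 0.0800% of the libraries. In si-Ctnnb1 it had 123, 108 and 117 counts, or 0.0416%, 0.0346% and 0.0374%. Every si-Ctnnb1 library was again below every si-CTL library, with a log2 ratio of mean shares of -1.21.

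The nuclear long noncoding RNAs and Mir6381 did not separate the siRNA groups. Malat1 had 202, 395 and 338 counts in si-CTL and 284, 290 and 362 in si-Ctnnb1, which is a mean share of 0.109% (SD 0.0156, n = 3) against 0.102% (SD 0.0123, n = 3). Neat1 had 11, 23 and 30 counts in si-CTL and 28, 14 and 13 in si-Ctnnb1. Mir6381 had 8, 8 and 9 counts in si-CTL and 10, 12 and 9 in si-Ctnnb1. The groups overlapped for all 3 genes, and the log2 fold changes of Neat1 and Mir6381, which had few counts, carried standard errors of 0.39 and 0.54 in edgeR. Thus 2 of the 5 genes were lower without overlap between the siRNA groups, a pattern that the choice of genes used, beside 9.18% of the 3484 genes tested that were lower in this way, 8.5% that were higher and 17.7% in either direction.

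**Figure D1:**
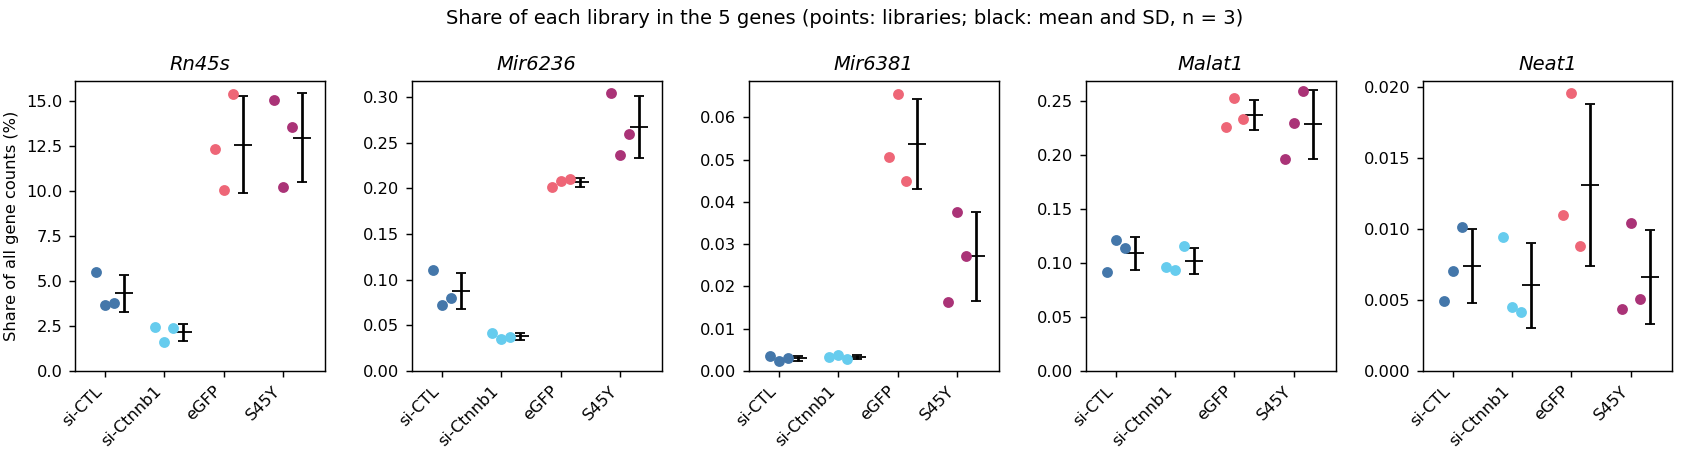
Share of all gene counts (%, linear axes from 0) of Rn45s, Mir6236, Mir6381, Malat1 and Neat1 in each library, with the mean and SD of each group (n = 3) in black. Rn45s and Mir6236 are lowest in si-Ctnnb1, and every gene except Neat1 is higher in all 6 plasmid libraries than in all 6 siRNA libraries.

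The plasmid libraries had higher mean shares of all 5 genes, and for 4 of them without overlap with the siRNA libraries. Rn45s held 12.3%, 10.03% and 15.4% of the eGFP libraries and 15.03%, 10.2% and 13.6% of the S45Y libraries. Over the 6 plasmid libraries its mean share was 12.8% ± 2.32, against 3.23% ± 1.38 over the 6 siRNA libraries (SD), 3.95-fold higher. In counts it had 9786 to 17459 in the plasmid libraries, a range that holds the 11236 to 12185 of si-CTL and lies above the 5030 to 7467 of si-Ctnnb1, while the plasmid libraries held fewer counts in all.

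Mir6236 held 0.201%, 0.208% and 0.211% of eGFP and 0.304%, 0.237% and 0.260% of S45Y, and its mean share was 3.78-fold higher in plasmid than in siRNA libraries. Malat1 held 0.226%, 0.253% and 0.233% of eGFP and 0.196%, 0.230% and 0.259% of S45Y, a mean 2.21-fold higher than in siRNA libraries. Mir6381 differed most, since the eGFP libraries held 60, 80 and 51 counts and the S45Y libraries 15, 36 and 32, a mean share 12.6-fold that of the siRNA libraries. None of these 3 genes overlapped between the 6 plasmid and the 6 siRNA libraries. Neat1 did overlap, with 13, 24 and 10 counts in the eGFP libraries and 4, 10 and 6 in the S45Y libraries, a mean share 1.48-fold that of the siRNA libraries. Without overlap 4 of the 5 genes were higher in plasmid libraries, beside 3.84% of the 2996 genes with enough counts (7.78% were lower and 11.6% either), and the choice of genes used this pattern too.

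When Rn45s and Mir6236 were left out of the library totals, the plasmid libraries still had the higher shares. The mean share of Malat1 was then 2.46-fold and that of Mir6381 13.96-fold higher than in siRNA libraries. Rmrp, the RNA of a nucleolar endonuclease that cuts the ribosomal RNA precursor, was 1.39-fold higher on the same totals, and 1.25-fold higher as a share of all counts, with overlap between plasmid and siRNA libraries. As a share of all counts it was 0.147% ± 0.0253 in plasmid and 0.117% ± 0.0105 in siRNA libraries (SD, n = 6 each), and eGFP did not overlap si-CTL. The ratio of Malat1 to Rmrp was between 0.814 and 0.966 in the siRNA libraries and between 1.39 and 1.83 in the plasmid libraries, so it did not overlap between them, and it does not depend on the library total. As a ratio to Malat1, the log2 difference of plasmid and siRNA libraries went from 1.98 to 0.84 for Rn45s and from 1.92 to 0.77 for Mir6236. It went from 3.66 to 2.45 for Mir6381, and for Neat1 it turned from 0.56 to -0.61.

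Rn45s and Mir6236 kept a narrow ratio while both shares varied widely. The share of Rn45s spanned 9.54-fold over the 12 libraries and that of Mir6236 8.78-fold, but Mir6236 per 1000 counts of Rn45s stayed between 13.7 and 23.2, a span of 1.70-fold. It was 20.02, 19.9 and 21.1 in si-CTL and 17.1, 21.5 and 15.7 in si-Ctnnb1. The eGFP libraries had 16.3, 20.7 and 13.7 and the S45Y libraries 20.2, 23.2 and 19.1. The groups overlapped.

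Other pairs of these genes varied more. Rn45s per count of Malat1 ranged from 17.3 to 76.8, and the si-Ctnnb1 libraries (17.3 to 25.4) were below the si-CTL libraries (30.1 to 60.3). Neat1 per 100 counts of Malat1 ranged from 1.97 to 9.86. Per kilobase of its longest transcript, Malat1 had 156 ± 22.4 CPM in si-CTL and 339 ± 20.1 in eGFP, and Neat1 had 3.55 ± 1.25 and 6.33 ± 2.75 (counts per 1000000 counts of the library and kilobase of transcript, SD, n = 3 each). Malat1 therefore had the higher level per length of these neighbours in these groups, and in si-Ctnnb1 (145 against 2.91) and S45Y (327 against 3.20).

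**Figure D2:**
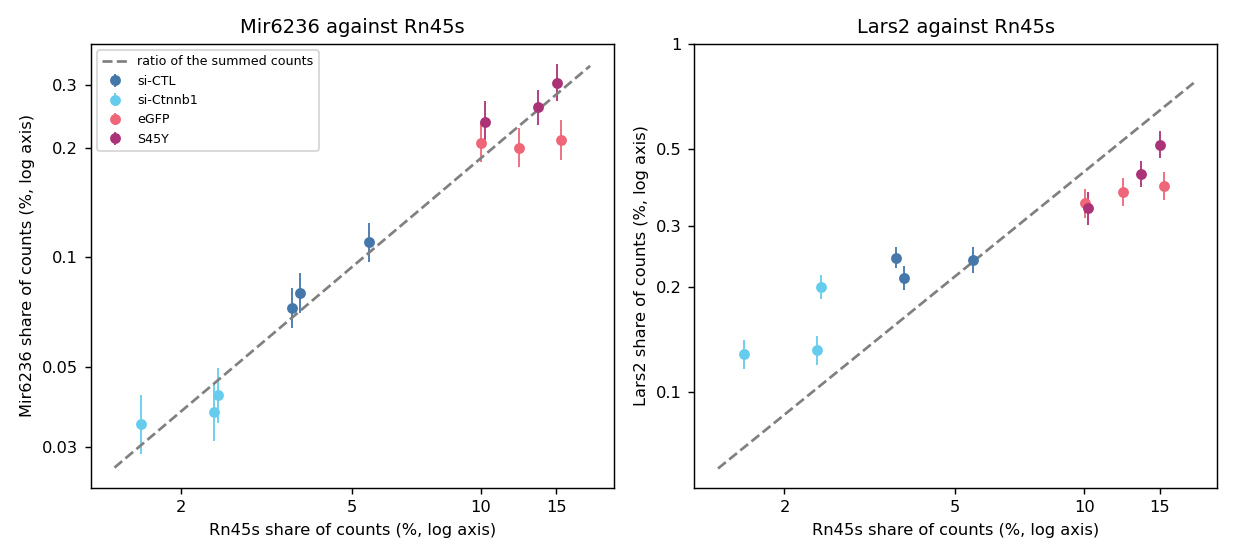
Share of Mir6236 (left) and of Lars2 (right) against the share of Rn45s in the 12 libraries (%, both axes logarithmic), with 95% Wilson intervals on the vertical axis and a dashed line at the ratio of the summed counts. Mir6236 stays close to the line, whereas Lars2 lies on or above it in all 6 siRNA libraries and below it in all 6 plasmid libraries.

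The S45Y and eGFP plasmids were compared on the 6 plasmid libraries, as labelled, since the counts of Ctnnb1 did not separate them. All 5 genes were among the 1819 with enough counts for edgeR and the 12569 tested by DESeq2. At an adjusted p below 0.05, 0 of the 5 passed edgeR's quasi-likelihood test and 0 passed DESeq2's Wald test, beside 0% of all genes tested in each tool. At an unadjusted p below 0.05, 2 of the 5 passed in each tool, Mir6381 and Mir6236, beside 5.88% of all genes tested in edgeR (3.63% higher and 2.25% lower) and 1.32% in DESeq2.

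Mir6381 was lower in S45Y than in eGFP at the unadjusted p, with shares of 0.0164%, 0.0376% and 0.0273% against 0.0507%, 0.0654% and 0.0449%. Every S45Y library was below every eGFP library. The log2 fold change came to -0.95 (SE 0.27, unadjusted p = 0.000792, adjusted p = 0.469 from edgeR). Over 12 alternatives the log2 fold change lay between -1.23 and -0.75 and the adjusted p between 0.196 and 0.997.

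Mir6236 was higher in S45Y at the unadjusted p, and its groups did not overlap either. Its log2 fold change came to 0.40 (SE 0.14, unadjusted p = 0.00698, adjusted p = 0.604 from edgeR). Without S45Y replicate 1 its unadjusted p was 0.095 in edgeR. No overlap, in either direction, was found for 2 of the 5 genes, beside 10.2% of all genes tested (5.44% higher and 4.78% lower).

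Rn45s and Malat1 had small differences, with log2 fold changes of 0.07 (SE 0.15, adjusted p = 0.989 from edgeR) and -0.02 (SE 0.14, adjusted p = 0.995 from edgeR). Their sign turned with single libraries left out, for Rn45s to -0.09 without eGFP replicate 2 or without S45Y replicate 1 and for Malat1 to 0.04 without S45Y replicate 1. Neat1 had a log2 fold change of -0.96 with a standard error of 0.53 (adjusted p = 0.890 from edgeR). It rests on 47 counts in eGFP and 20 in S45Y, and its unadjusted p was 0.0771, and between 0.0308 and 0.409 over the 12 alternatives.

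Single shares and ratios were also compared with exact permutation tests, with 0.1 as the smallest p that 3 libraries against 3 allow. Of 9 shares and ratios tested, the share of Mir6236, the share of Mir6381 and the ratio of Mir6381 to Malat1 reached it (two-sided exact permutation test, p = 0.1 each, adjusted p = 0.3). The ratio of Mir6236 to Rn45s was 1.25-fold higher in S45Y than in eGFP, with overlap between the groups (two-sided exact permutation test, p = 0.3, adjusted p = 0.45). The ratio of Neat1 to Malat1 was 0.519-fold that in eGFP (two-sided exact permutation test, p = 0.2, adjusted p = 0.36).

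**Figure D3:**
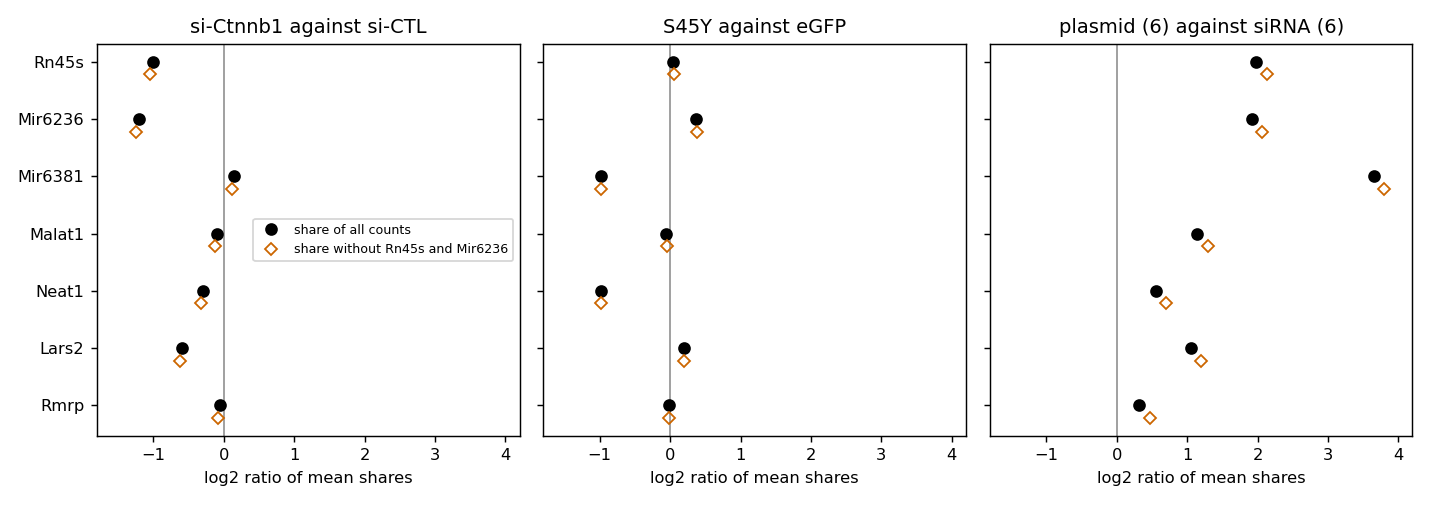
Log2 ratio of mean shares for the 5 genes, Lars2 and Rmrp in si-Ctnnb1 against si-CTL, S45Y against eGFP and plasmid against siRNA libraries, as a share of all counts (filled) and of counts without Rn45s and Mir6236 (open diamonds). The order of the genes differs between comparisons. Leaving Rn45s and Mir6236 out of the totals moves the values most in plasmid against siRNA. There Rn45s goes from 1.98 to 2.13 and Rmrp from 0.32 to 0.48.

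Mir6381 was set beside the guanylate-binding protein genes, since it lies inside Gbp2. These genes were chosen after their values were seen. Gbp2 itself had 0 counts in every siRNA library, between 1 and 3 in eGFP and between 0 and 3 in S45Y, fewer than Mir6381, and its eGFP and S45Y libraries overlapped. The 11 Gbp genes of the table together had 3, 10 and 6 counts in si-CTL and 5, 0 and 4 in si-Ctnnb1. The eGFP libraries held 27, 35 and 28 such counts and the S45Y libraries 9, 11 and 25. The summed share of the Gbp genes was, like that of Mir6381, lower in every S45Y than in every eGFP library, as for 4.78% of all genes tested, and lowest in the siRNA libraries. This sum was not tested, and their part in the counts of Mir6381 was not tested.

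**Figure D4:**
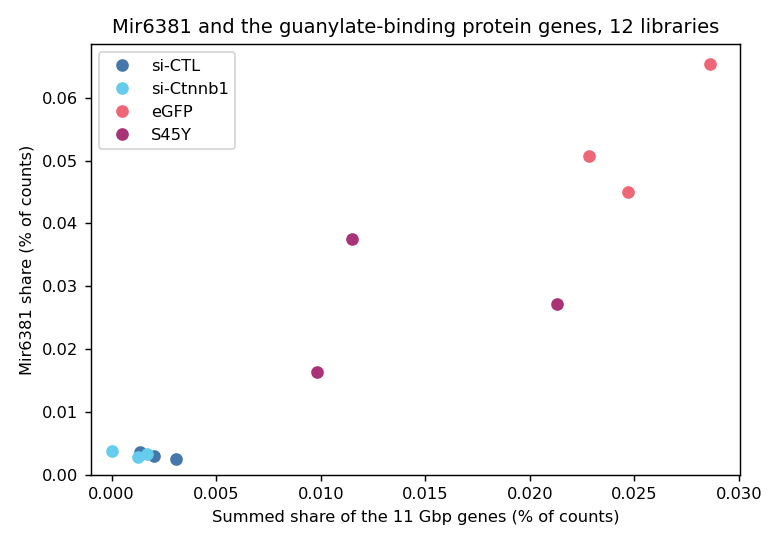
Share of Mir6381 against the summed share of the 11 Gbp genes (% of counts) in the 12 libraries, colored by group. The 6 siRNA libraries sit together near the origin, the eGFP libraries are highest on both axes and the S45Y libraries lie between.

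Among 1169 genes named Mir with a number, Mir6236 had the most counts. It held 2607 of 10530 counts on such genes (24.8%), ahead of Mir130c with 1485, and Mir6381 ranked 11 with 330. Only 170 of the 1169 had any count, and 48 had at least 10.

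The genes most like each of the 5 were taken by the correlation of log2 CPM over the 12 libraries, among 1257 other genes with at least 300 counts. All points share the 4 groups and the gap in depth between plasmid and siRNA libraries, so these values describe the libraries. For Rn45s they were Ptms, Lars2 and Myh9 (Pearson r 0.966, 0.965 and 0.956), after Mir6236 itself with 0.983. With group means removed, r was 0.821 for Mir6236, 0.821 for Ptms, 0.679 for Lars2 and 0.419 for Myh9. For Mir6236 they were Lars2, Myh9 and Sphk2 (0.962, 0.952 and 0.951, and 0.619, 0.216 and 0.244 with group means removed).

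Mir6381 and Malat1 had the same 3 genes nearest to them. Parp9, an interferon-stimulated gene, led with 0.971 for Mir6381 and 0.980 for Malat1, with Gm15441 (0.965 and 0.972) and Slc7a15 (0.969 and 0.956) next. With group means removed Parp9 had 0.076 with Mir6381 and 0.758 with Malat1, Gm15441 had 0.432 and 0.266, and Slc7a15 had 0.165 and 0.057. Neat1 was nearest to Iqgap1, Dedd and 1110008L16Rik (0.804, 0.781 and 0.776), lower than the values of the other 4 genes. With group means removed these were 0.657, 0.854 and 0.759, above most of those of the other 4 genes.

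Lars2, the mitochondrial leucyl-tRNA synthetase, was in a list of loci known to collect ribosomal RNA reads in mouse data, and it was the only gene of the lists that passed the adjusted p in silencing. Its mean was 2310 CPM (SD 167, n = 3) in the control and 1530 CPM (SD 407, n = 3) after silencing. It fell by 0.58 on the log2 scale (SE 0.12, edgeR adjusted p = 0.00178), beside 0.746% of the 3484 genes tested that were lower at this threshold, 0.804% that were higher and 1.55% in either direction. Lars2 followed Rn45s over the 12 libraries (Pearson r 0.965), and the lower Rn45s after silencing was used to choose the genes. This call is therefore not independent of that choice and adds no separate support to it. Without si-Ctnnb1 replicate 3 the adjusted p was 0.0770 from edgeR, and it was below 0.05 under the other 11 alternatives. In S45Y against eGFP its log2 difference was 0.22 (adjusted p = 0.936 from edgeR). Only 2 of the 11 loci of this list, Lars2 and Rn4.5s, were in the count table. Rn4.5s had 0 counts, so Lars2 was the only one that could be tested.

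Genes of the machinery that makes and processes the precursor were taken from lists written by hand, and their counts were compared. As the strand setting of the counting is unknown, counts on any of these genes may hold reads from the opposite strand. Of 19 genes of RNA polymerase I transcription, 9 could be tested in silencing, and 0 passed the adjusted p in either direction in edgeR, with 1 lower at an unadjusted p below 0.05. This was Tcof1, treacle, which promotes ribosomal DNA transcription (log2 fold change -0.71, SE 0.27). At that unadjusted p, 6.08% of all genes tested were lower, 6.43% higher and 12.5% either. The list's median log2 fold change was -0.15, against 0.00 over all genes tested. The genes with the most counts were Nolc1, a nucleolar phosphoprotein (log2 fold change 0.17, SE 0.16), Baz2a, a subunit of the complex that silences ribosomal DNA (-0.22, SE 0.20), and Top1, DNA topoisomerase I (-0.44, SE 0.24). In activation 6 could be tested and 0 passed the adjusted or the unadjusted p in edgeR.

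Of 91 genes of ribosomal RNA processing, 45 could be tested in silencing and 0 passed the adjusted p in edgeR. At an unadjusted p below 0.05, 2 were higher, Utp18 (0.74) and Rrp8 (0.36), and 2 lower, Exosc8 (-1.30) and Tsr1 (-0.34, all as log2 fold changes), and the list's median was 0.05. Over all genes tested 6.43% were higher and 6.08% lower at that p. Utp18 and Tsr1 serve maturation of the small subunit, Rrp8 methylates ribosomal RNA and Exosc8 belongs to the RNA exosome. Nucleolin (Ncl) had a mean of 828 CPM (SD 42.6, n = 3) in the control and 799 CPM (SD 75.7, n = 3) after silencing, a difference within the spread. Exosc9, a subunit of the RNA exosome, had a log2 fold change of 0.05 and Ddx49, an RNA helicase, one of 0.24. In activation 16 could be tested, with 0 past the adjusted or the unadjusted p in edgeR and a median of 0.02.

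The proteins of the bodies where Malat1 and Neat1 reside also gave no call. Of 30 nuclear speckle proteins 20 could be tested in silencing, with 0 past the adjusted p and 4 lower at an unadjusted p below 0.05 in edgeR. Over all genes tested 6.08% were lower and 6.43% higher at that p. These 4 were the kinase Clk3 (log2 fold change -0.83) and the splicing factors Srrm1 (-0.81), Srrm2 (-0.76) and Srsf9 (-0.66). In activation 13 could be tested, with 0 past the adjusted p and 1 lower at the unadjusted p in edgeR, Srsf11 (-0.57), beside 2.25% of all genes tested in activation that were lower. The most abundant, Rbm25, Acin1 and Srsf4, had log2 fold changes of 0.07, 0.02 and 0.31 in silencing. Of 25 paraspeckle proteins 13 could be tested in silencing, with 0 past the adjusted p, 1 higher and 2 lower at the unadjusted p in edgeR, namely Tardbp (0.87), Smarca4 (-0.89) and Ubap2l (-1.13), beside 6.43% higher and 6.08% lower over all genes tested in silencing. In activation 7 could be tested, with 0 past the adjusted p and 1 higher at the unadjusted p in edgeR, Nono, a core paraspeckle protein (log2 difference 0.95, SE 0.42, adjusted p = 0.792), beside 3.63% of all genes tested in activation that were higher. Sfpq, its partner, had log2 fold changes of 0.10 in silencing and -0.26 in activation. Rbm4b, a splicing regulator and the most abundant of this list, had 0.02 and 0.10.

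Of 45 other noncoding RNAs listed, 27 had a count, 6 could be tested in silencing and 4 in activation. In edgeR 0 passed the adjusted p in either comparison, beside 1.55% of all genes tested in silencing and 0% in activation. At an unadjusted p below 0.05, 12.5% of all genes tested passed in silencing and 5.88% in activation. Tsix, the antisense transcript of Xist, had the most counts, with log2 fold changes of -0.32 in silencing (adjusted p = 0.0605 from edgeR) and 0.37 in activation (adjusted p = 0.604 from edgeR). Its unadjusted p was 0.00108 and 0.00697 in edgeR. Tsix overlaps Xist on the opposite strand, and with the strand setting of the counting unknown, reads of Tsix and Xist cannot be told apart. Over all libraries Tsix had 12328 counts and Xist 97. Rmrp had log2 fold changes of -0.04 and 0.02. Rpph1, the RNA of ribonuclease P, had 0.66 in silencing, higher at an unadjusted p of 0.0434 in edgeR, and -0.14 in activation. Of 10 genes of microRNA biogenesis, 3 could be tested in silencing, Drosha (-0.72), Ago2 (-0.33) and Tarbp2 (-0.38). Of these 0 passed the adjusted or unadjusted p in edgeR, and none could be tested in activation. With DESeq2's Wald test, 1 gene of all lists together passed the adjusted p in silencing, Lars2, and 0 in activation.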

How the data were processed

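RNA of 12 SMCC libraries was sequenced. Per the labels and the paper's methods, the authors trimmed reads with Trimmomatic 0.38, aligned them to mm10 with HISAT2 2.1.0 and counted them with HTSeq 0.11.2, and the deposited values are raw counts per gene symbol without normalization. The annotation, strand setting and treatment of reads with several matches are not given in the sources used here. Counts on any gene, also on Malat1, Neat1 and the listed genes, may thus hold reads from the opposite strand.

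The 5 genes and the lists were chosen with earlier results of these data known. Shares and ratios were computed from counts. The si-Ctnnb1 and si-CTL libraries and the S45Y and eGFP libraries were compared with edgeR 4.0.16 in R 4.3.3 (filterByExpr, TMM, quasi-likelihood test, Benjamini-Hochberg adjustment over all genes tested), and single values with exact permutation tests in SciPy 1.17.1. The code was tested on simulated counts. From each list the 3 genes with most counts and those past the adjusted p of 0.05 were named, and beside each of the 5 the 3 genes most like it. A few other genes were named after their values were seen. Depth was 91468 to 326686 counts per library, so low genes rest on few counts. Alternatives were DESeq2 1.42.0, other scalings, no filter, 1 fit of all libraries, a replicate block and each library left out. Positions came from GENCODE M21 (mm10). One sequence is not reported here.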

Additional observations from a re-analysis of the deposited data

How the results depend on the processing

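In activation the number of the 5 genes past the adjusted p stayed 0 under all 12 alternatives, and so did the number of list genes. In silencing 1 list gene, Lars2, passed, and 2 passed with library totals without Rn45s and Mir6236, where Tsix was added (adjusted p = 0.0249 from edgeR). The count was also 2 with the replicate number as a block (replicate block), again Lars2 and Tsix (adjusted p = 0.0106 from edgeR), and ranged from 0 to 2 with single libraries left out, 0 when si-Ctnnb1 replicate 3 was left out and 2 when either si-Ctnnb1 replicate 2 or si-CTL replicate 3 was. Same-numbered libraries did not deviate together (r between -0.048 and 0.038 in silencing and between -0.005 and 0.031 in activation), so the numbers were not read as pairs, and the block changed no other call. With single libraries left out, the log2 fold change of Rn45s in activation ranged from -0.094 to 0.244 in edgeR and from -0.107 to 0.206 as a share, that of Malat1 from -0.161 to 0.037 in edgeR and from -0.159 to 0.043 as a share, and the ratio of Rn45s to Malat1 from -0.115 to 0.279. As a ratio to Malat1 in place of a share, the log2 difference of plasmid and siRNA libraries was 0.84 for Rn45s, 0.77 for Mir6236, 2.45 for Mir6381 and -0.61 for Neat1, and that of Malat1 to Neat1 was 0.75. In silencing Malat1 relative to Neat1 was 0.33, against -0.10 as a share. The cause of these shifts was not tested beyond the change of denominator. Depth limits Neat1 and Mir6381 most, with as few as 4 and 8 counts in a library.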
